A study of Mus musculus with 6 samples.

Results

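The set examined here holds 10 genes of vascular tone: 8 receptors for vasoactive signals and 2 of the proteins that shut their signal off. The receptors bind angiotensin II (Agtr1a), endothelin (Ednra and Ednrb), catecholamines (Adra1b and Adra1d), vasopressin (Avpr1a), prostacyclin (Ptgir) and thromboxane (Tbxa2r). The other members, Rgs4 and Rgs5, are regulators of G protein signalling. The rule takes the genes by symbol. All 10 are among the 22956 genes listed in the deposited table, and all 10 passed the filter on low counts that left 16654 genes for testing.

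Most of these receptors couple to the G proteins Gq and G11, which raise calcium in the smooth muscle cell of the vessel wall and make it contract. The prostacyclin receptor couples to Gs and relaxes the vessel. RGS proteins speed up the hydrolysis of GTP by the alpha subunits of Gi and Gq, and so end the signal sooner.

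Messenger RNA was measured in 6 aortic samples of C57B6 mice, with smooth muscle cell as the labelled cell type. The animals were 30 weeks old and had eaten a western diet, which promotes atherosclerosis, for 20 of those weeks. The 3 WT samples had the genotype WT/mTmG/ Myh11ERT2, and the 3 knockout samples had the genotype miR-21fl/flmTmG/Myh11ERT2. Both groups therefore carried mTmG, a reporter that changes colour where Cre recombinase has acted, and Myh11ERT2, a driver from the smooth muscle myosin promoter. In the knockout the gene of the microRNA miR-21 is floxed, so that any loss would be limited to cells in which that promoter was active. Whether the driver was induced with tamoxifen is not stated in the labels. The labels do not say whether the samples are separate animals, so p-values measure the spread between these samples, which may be technical.

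Library totals ran from 37787465 to 154384307 estimated counts, a 4.09-fold range with WT 3 the deepest. Levels are given as CPM, the count brought to a common library total with TMM scaling, and fold changes are log2 of knockout over WT with a standard error (SE). The level of miR-21 was not analysed here, so its loss could not be checked from these counts. The 8 smooth muscle markers summed to between 23180 and 36200 CPM. The 10 endothelial markers summed to between 88.5 and 104 CPM, most of it from Pecam1 (52.9 to 63.6 CPM) and Flt1 (17.9 to 37.4 CPM), while Cdh5 and Kdr stayed below 1 CPM in every library. Markers of adventitial fibroblasts, the connective tissue cells around the vessel, were uneven between libraries. Their sum over 10 genes was between 3146 and 6850 CPM in WT and between 1505 and 5547 CPM in knockout. Most of it came from Lum and Dcn, while Dpt, Clec3b, Pi16 and Dpep1 stayed at or below 20.4 CPM in every library. In such bulk samples, fewer cells of a type and less RNA per cell cannot be told apart.

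None of the 10 genes passed the test of a difference between the genotypes. In edgeR's quasi-likelihood test 0 of 10 passed an adjusted p of 0.05, as did 0% of all genes tested, and the members' adjusted p-values lay between 0.833 and 0.995. At an unadjusted p of 0.05, 0 of 10 passed, beside 5.96% of all genes. With a library left out this number ran from 0 to 4, the highest without knockout 1 (Ednra, Avpr1a, Ptgir and Rgs4, beside 10.1% of all genes in that fit). For 0 of 10 did the 3 knockout libraries lie entirely above or below the 3 WT libraries, beside 12.1% of all genes (6.48% with knockout above and 5.6% with knockout below). With DESeq2 0 of 10 passed an adjusted p of 0.05, beside 0.447% of the 16324 genes given an adjusted p. The fitted value was above 0 for 7 members and below 0 for 3, with a median log2 fold change of 0.08, against -0.002 over all genes tested. Ednra, Avpr1a and Ptgir had the negative values, each near -0.7, and the remaining 7 lay between 0.02 and 0.47.

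**Figure D1:**
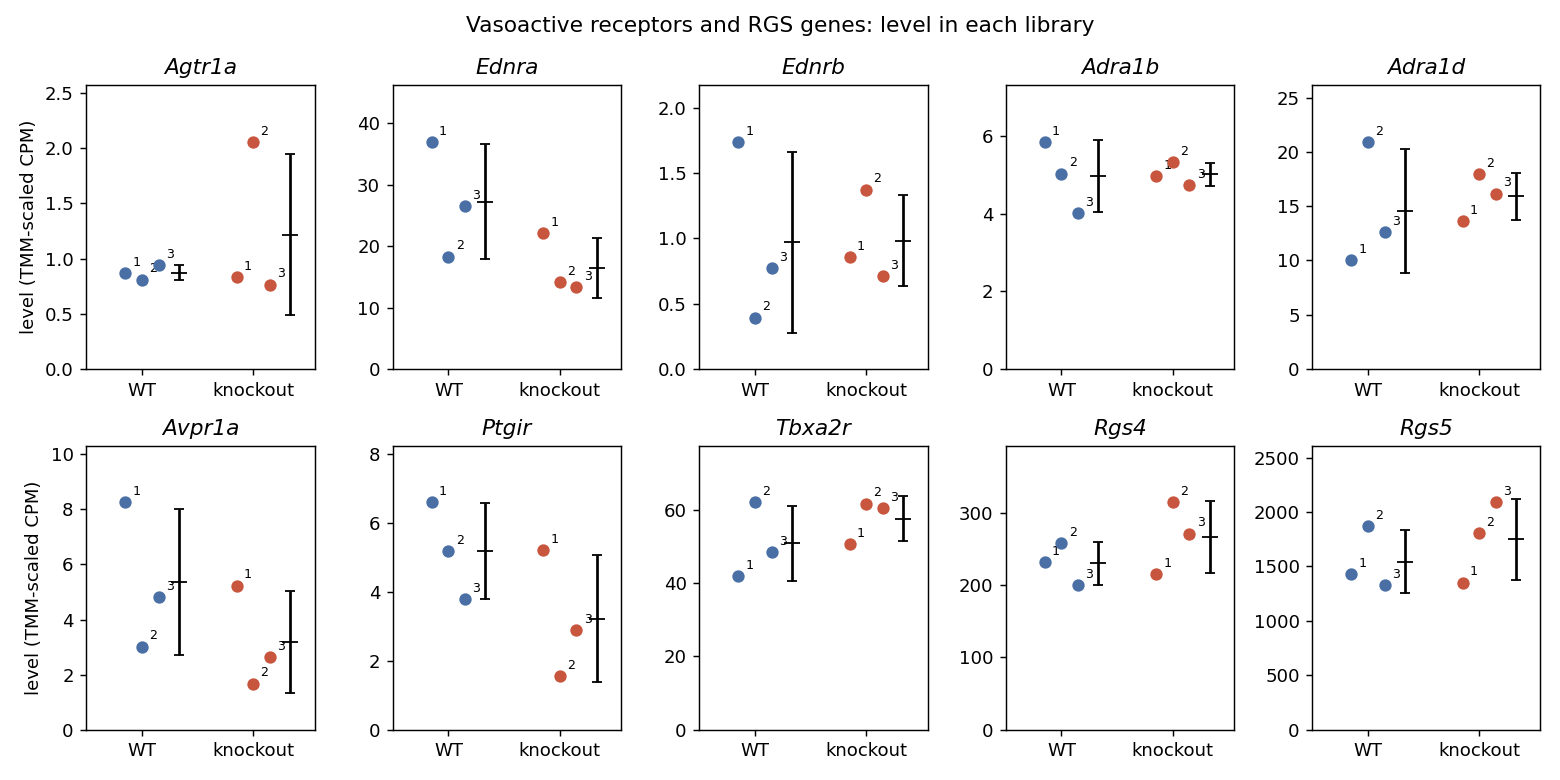
Level of each of the 10 genes in TMM-scaled CPM (vertical axes, linear and starting at 0) in each WT library (blue) and knockout library (red), with the replicate number beside each point. The black bar gives the mean and SD of the 3 libraries of a group, and the groups overlap in all 10 panels.

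The members differed far more from each other than between genotypes. Per kilobase of exon, averaged over the 6 libraries, Rgs5 stood highest at 362 ± 70.0 CPM per kilobase (SD, n = 6). Rgs4 followed at 84.6 ± 14.2 and Tbxa2r at 28.3 ± 4.38 CPM per kilobase. This order held in 6 of 6 libraries, and Rgs5 was 3.72 to 4.97 times as abundant per kilobase as Rgs4. Adra1d (8.01 ± 2.07) and Ednra (6.04 ± 2.46) came next, and their order with each other held in only 4 of 6 libraries. Avpr1a (1.60 ± 0.887), Adra1b (1.475 ± 0.181) and Ptgir (1.26 ± 0.546) could not be ordered, since each neighbouring pair kept its order in 3 of 6 libraries. Agtr1a (0.476 ± 0.227) and Ednrb (0.228 ± 0.115) were lowest, in that order in 5 of 6 libraries. By mean CPM, Rgs5 ranked 61 and Rgs4 ranked 627 among the 16654 genes tested, while Agtr1a ranked 13680 and Ednrb 13785.

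Ednra encodes the endothelin A receptor, the form through which endothelin-1 contracts smooth muscle. Its coordinates in mm10 are chromosome 8, 77663031 to 77724464, minus strand. Its level was 37.0, 18.3 and 26.5 CPM in WT 1, 2 and 3, and 22.2, 14.1 and 13.3 CPM in knockout 1, 2 and 3. WT 1 was highest and knockout 3 lowest, and the groups overlapped because knockout 1 lay above WT 2. The mean was 27.3 ± 9.38 CPM in WT and 16.5 ± 4.89 CPM in knockout (SD, n = 3 each). The fitted log2 fold change was -0.73 with an SE of 0.30 and a 95% interval from -1.46 to 0.01 (edgeR, unadjusted p = 0.0526, adjusted p = 0.833). Of the 10 genes it came nearest to the threshold. DESeq2 gave an unadjusted p of 0.0112 and an adjusted p of 0.483. The log2 fold change was -0.45 without WT 1 (edgeR, adjusted p = 0.937) and -0.998 without knockout 1 (edgeR, adjusted p = 0.469). In 91 of its 3625 exon bases Ednra overlaps an exon of 4933431K23Rik on the opposite strand, and the sources used here do not say whether counting used strand.

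Ednrb (chromosome 14, 103814625 to 103844402, minus strand) encodes the endothelin B receptor, which is best known for clearing endothelin and for nitric oxide release in endothelium. It was scarce, with 16 to 119 estimated counts per library. Its level was 1.74, 0.393 and 0.773 CPM in the WT libraries and 0.858, 1.37 and 0.709 CPM in the knockout libraries. The highest and the lowest value were both in WT, so that the spread within a group (4.43-fold between WT 1 and WT 2) exceeded any difference between the groups. The log2 fold change was 0.03 ± 0.55 (SE), with a 95% interval from -1.27 to 1.33, and its sign turned when WT 2, WT 3 or knockout 2 was left out.

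Agtr1a encodes the main receptor for angiotensin II (chromosome 13, 30336441 to 30382867, plus strand). It had 31 to 145 estimated counts per library. Its level was 0.870, 0.810 and 0.942 CPM in WT and 0.831, 2.06 and 0.765 CPM in knockout. All libraries but knockout 2 lay between 0.765 and 0.942 CPM, and knockout 3 was the lowest of the 6. The log2 fold change of 0.47 ± 0.42 (SE) became -0.14 without knockout 2. Rodents carry a close copy, Agtr1b, and the authors' counting may have divided reads between the 2 genes. Agtr1b made up 64.1% to 87.3% of the per-kilobase level of the angiotensin receptors, and Agtr1a 12.5% to 35.9%.

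Adra1b (chromosome 11, 43774606 to 43901210, minus strand) and Adra1d (chromosome 2, 131545850 to 131562283, minus strand) encode alpha1 adrenergic receptors, through which noradrenaline from sympathetic nerves constricts arteries. The level of Adra1b was 5.85, 5.03 and 4.01 CPM in WT and 4.96, 5.33 and 4.74 CPM in knockout. It was the steadiest member, 1.46-fold between its highest and lowest library, with all 3 knockout libraries between the lowest and the highest WT library. Adra1d was 10.05, 20.9 and 12.6 CPM in WT and 13.6, 17.9 and 16.2 CPM in knockout, and again WT held both ends of the range. The log2 fold changes were 0.02 ± 0.17 and 0.13 ± 0.27 (SE), and both changed sign when some single library was left out. Exons of Adra1d overlap an antisense gene, Gm14285, over 147 of 1899 bases. Adra1d supplied 71.8% to 83.8% of the summed per-kilobase level of the alpha1 receptors, Adra1b 11.3% to 23.5% and Adra1a 3.07% to 8.35%.

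Avpr1a encodes the V1a receptor, through which vasopressin constricts vessels (chromosome 10, 122448499 to 122453452, plus strand). Its level was 8.25, 3.02 and 4.81 CPM in WT and 5.23, 1.67 and 2.64 CPM in knockout. It varied most of the 10 genes, 4.94-fold between WT 1 and knockout 2, and knockout 1 lay above both WT 2 and WT 3. The log2 fold change was -0.76 ± 0.51 (SE), with a 95% interval from -1.98 to 0.47 (edgeR, adjusted p = 0.865). Leaving out WT 1 brought it to -0.32, and leaving out knockout 1 brought it to -1.30.

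Among the prostanoid receptors, Ptgir and Tbxa2r oppose each other: prostacyclin relaxes vessels and thromboxane A2 contracts them. Ptgir (chromosome 7, 16906490 to 16910905, plus strand) stood at 6.59, 5.18 and 3.79 CPM in WT and at 5.20, 1.56 and 2.89 CPM in knockout. Knockout 1 sat above 2 of the WT libraries, whereas knockout 2 and 3 were the lowest of the 6. Its log2 fold change was -0.69 ± 0.44 (SE; edgeR, adjusted p = 0.864), and -0.36 without knockout 2 or -1.20 without knockout 1. Tbxa2r (chromosome 10, 81328731 to 81335172, plus strand) stood at 42.1, 62.1 and 48.5 CPM in WT and at 50.6, 61.7 and 60.6 CPM in knockout. WT 2 was its highest library and WT 1 its lowest, 1.48-fold apart. Its log2 fold change was 0.18 ± 0.15 (SE), with a 95% interval from -0.18 to 0.55. Tbxa2r gave 51.1% to 73.7% of the per-kilobase level of 7 prostanoid receptors, Ptger3 20.5% to 34.3% and Ptgir 1.07% to 4.61%.

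**Figure D2:**
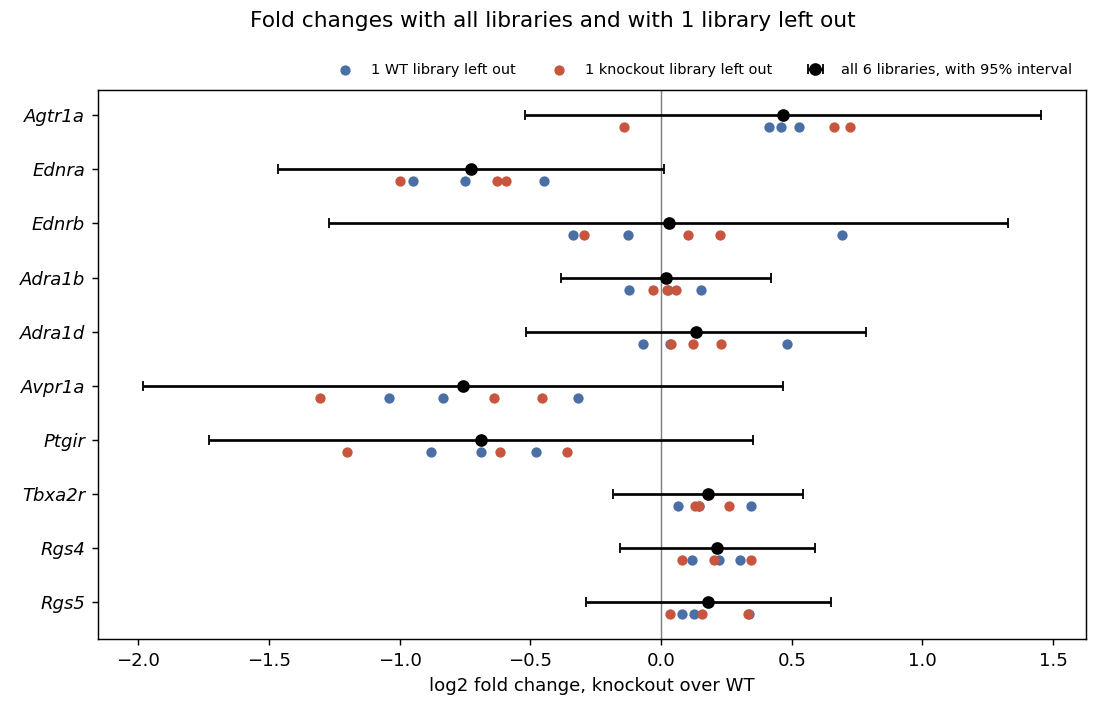
Log2 fold change, knockout over WT (horizontal axis), of each of the 10 genes from edgeR with all 6 libraries (black, with the 95% interval) and with 1 WT library (blue) or 1 knockout library (red) left out. Every black interval reaches across 0, and with a library left out Agtr1a, Ednrb, Adra1b and Adra1d have points on both sides of 0.

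Ratios of paired members within a library do not move with library scaling, so 4 were compared between the genotypes by an exact permutation test, in which 3 libraries against 3 cannot give a two-sided p under 0.1. The log2 ratio of Ednra over Ednrb was 4.39, 5.44 and 5.04 in WT and 4.64, 3.33 and 4.17 in knockout. Knockout 2 and 3 had the lowest ratios, but knockout 1 lay above WT 1. The difference of the means was -0.91 (exact p = 0.2, and 0.6 after Benjamini-Hochberg adjustment over the 4 ratios). For Ptgir over Tbxa2r the log2 ratio was -2.67, -3.58 and -3.67 in WT and -3.28, -5.28 and -4.37 in knockout, a difference of -1.01 (exact p = 0.3, adjusted 0.6). Here too knockout 1 fell among the WT libraries. With a library left out the difference ran from -1.20 to -0.55 for Ednra over Ednrb and from -1.525 to -0.52 for Ptgir over Tbxa2r. The differences were 0.16 for Adra1d over Adra1b (exact p = 0.8) and -0.03 for Rgs5 over Rgs4 (exact p = 0.9), each with an adjusted p of 0.9.

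Rgs4 and Rgs5, both with an established role as brakes on Gq signalling in smooth muscle, were the most abundant of the 10 genes. They are neighbours on chromosome 1, with Rgs5 (plus strand) at 169655501 to 169695813 and Rgs4 (minus strand) at 169741477 to 169747642, 45.7 kb apart. Rgs5 is also widely used as a marker of pericytes, the mural cells of small vessels. The sequences are shown because these are the only members whose 3′ untranslated region (UTR) holds ATAAGCT or TAAGCTA, the 7-letter words that correspond to the start of miR-21. Capitals mark the seed, bases 2 to 8, of the mature microRNA (RefSeq, GRCm38.p6). In the UTRs they mark the letters that pair with the seed and the final A, which faces base 1 outside the seed (GENCODE M21, GRCm38, the assembly also called mm10), all written 5′ to 3′ on the strand of the transcript.
miR-21a-5p: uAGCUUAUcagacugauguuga
Rgs5: aaatcaattgATAAGCTAacaagcactc
Rgs4 first: cattgagcacTAAGCTAaggggtgagc
Rgs4 other: gccgtggttcTAAGCTAcatgcctaca

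The Rgs5 match, ATAAGCTA, pairs with bases 2 to 8 and ends in the A that faces base 1. It lies at chr1:169694401-169694408, at position 2061 of a 3′ UTR of 3473 bases. Both Rgs4 matches, TAAGCTA, lack the first of these letters and so pair with bases 2 to 7 only. They lie at chr1:169742877-169742883 and chr1:169742482-169742488, at positions 798 and 1193 of 2204. On the transcript strand, ATAAGCTA was found in 2.17% of the 12985 tested genes whose 3′ UTR was searched, TAAGCTA (which is part of ATAAGCTA) in 7%, and at least 2 copies of TAAGCTA in 0.608%. In the receptors neither 7-letter word was found in these UTRs. Agtr1a and Ptgir each held the 6 letters TAAGCT, found in 24.8% of genes, and the other 6 receptors held none of these. Of the 11 other RGS genes tested, 0 had ATAAGCT or TAAGCTA, which 7.31% and 7% of all genes searched held. These shares are not adjusted for UTR length. The median length was 773 bases in the 11 other RGS genes and 1049 over all genes searched, shorter than in Rgs4 and Rgs5. A match of letters describes the sequence and does not show a site that is used.

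Rgs5 stood at 1429, 1871 and 1329 CPM in WT and at 1351, 1808 and 2087 CPM in knockout. Knockout 3 was highest, but knockout 1 lay below WT 1 and WT 2. The mean was 1543 ± 289 CPM in WT and 1748 ± 371 CPM in knockout (SD, n = 3 each). This gave a log2 fold change of 0.18 ± 0.20 (SE) with a 95% interval from -0.29 to 0.65 (edgeR, adjusted p = 0.904). Without knockout 3 it was 0.03, and without WT 2 it was 0.34. Over the 282 genes with ATAAGCTA in the 3′ UTR the median log2 fold change was 0.10 (quartiles -0.01 and 0.21), and over the 9770 genes without TAAGCT it was -0.01 (quartiles -0.11 and 0.09). The 95% interval of Rgs5 takes in the quartiles of both groups, and whether its match has a part in its value was not tested.

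Rgs4 stood at 232, 258.8 and 199.9 CPM in WT and at 215.5, 314.6 and 271.5 CPM in knockout. Knockout 2 and 3 were the highest of the 6 libraries, and knockout 1 lay below WT 1 and WT 2. The mean was 230.2 ± 29.5 CPM in WT and 267 ± 49.7 CPM in knockout (SD, n = 3 each). The log2 fold change was 0.22 ± 0.16 (SE) with a 95% interval from -0.16 to 0.59 (edgeR, adjusted p = 0.868). It ranged from 0.08 without knockout 2 to 0.34 without knockout 1, where the unadjusted p was 0.0372 and the adjusted p 0.488. The 79 genes with at least 2 copies of TAAGCTA had a median log2 fold change of 0.10 (quartiles 0.00 and 0.18). The 627 genes with TAAGCTA but no ATAAGCTA, to which Rgs4 also belongs, had a median of 0.04 (quartiles -0.06 and 0.14).

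Together these 2 genes made up most of the RGS message in the samples. Of the per-kilobase level of the 16 RGS genes listed, Rgs5 held 69.5% to 75.4% and Rgs4 15.2% to 19% in every library. Rgs2, which acts mainly on Gq and is induced by vasoconstrictors, was the next of them. Its share was 4.58% ± 0.747 in WT and 3.44% ± 0.538 in knockout (SD, n = 3 each). A share of Rgs2 also depends on the level of Rgs5: in knockout 3, Rgs5 held 75.4% and Rgs2 2.83%. The difference in share between the genotypes was not tested.

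Several members had their highest or lowest library in common with a sum of cell type markers. Ednra, Avpr1a and Ptgir were all highest in WT 1 and lowest in knockout 2 or 3. The summed fibroblast markers were 6850, 3146 and 6089 CPM in WT and 5547, 1505 and 2010 CPM in knockout, so they too were highest in WT 1 and lowest in knockout 2. All 10 fibroblast markers were listed and none was at 0. Most of the sum came from Lum, between 706 and 4108 CPM, and Dcn, between 484.5 and 2007 CPM. Pdgfra was between 25.6 and 81.0 CPM, Pi16 between 1.06 and 5.27 CPM and Dpep1 between 0.319 and 2.11 CPM. Not every marker had the order of the sum: Mfap5 and Dpep1 were highest in knockout 2, where the sum was lowest. Of these 10 markers 7 were lower and 3 higher in knockout, with a median log2 fold change of -0.38 and 0 past an unadjusted p of 0.05. Tbxa2r and Adra1d ran the other way, lowest in WT 1 and highest in WT 2. The summed smooth muscle markers were 23180, 34830 and 29100 CPM in WT and 27820, 36200 and 34120 CPM in knockout, also lowest in WT 1. Rgs4 and Rgs5 had their highest levels in WT 2, knockout 2 and knockout 3, as did the smooth muscle sum, but were lowest in WT 3. Agtr1a, Ednrb and Adra1b followed neither order, although Ednrb and Adra1b were also highest in WT 1, and Adra1b was lowest in WT 3. Of these 8 smooth muscle markers 7 were higher in knockout, with a median log2 fold change of 0.13. In edgeR 1 of the 8, Myocd (0.36), passed an unadjusted p of 0.05, beside 5.96% of all genes. Des was the lower marker (-0.45), with every knockout library below every WT library. What part cell content has in the values of the 10 genes was not tested.

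**Figure D3:**
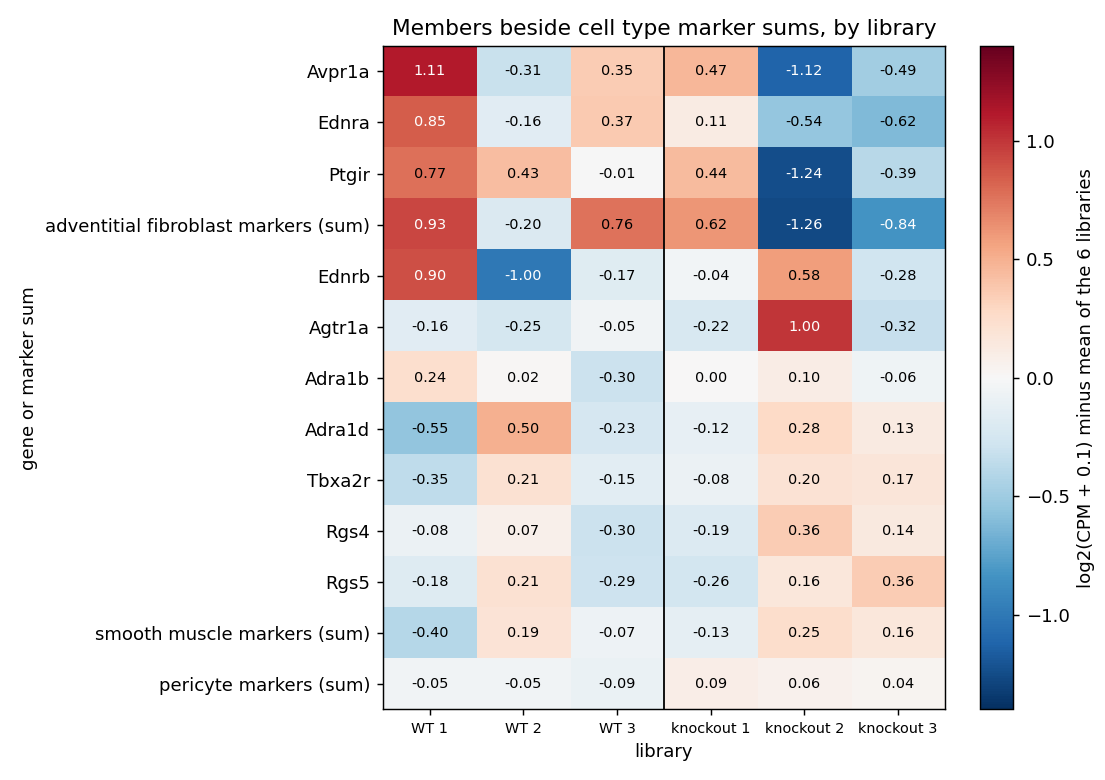
Levels of the 10 genes and of 3 summed marker lists in each library (columns; WT left of the line, knockout right), as log2(CPM + 0.1) minus the mean of the 6 libraries, in colour and digits. In WT 1, Avpr1a, Ednra, Ptgir and the fibroblast sum lie between 0.77 and 1.11, while Adra1d, Tbxa2r and the smooth muscle sum lie between -0.55 and -0.35.

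The pericyte markers ran differently from Rgs5. Their sum was 2280, 2285 and 2214 CPM in WT and 2503, 2459 and 2431 CPM in knockout, so that every knockout library lay above every WT library. Without Cspg4 the sum over the other 8 was 1429, 1183 and 1219 CPM in WT and 1255, 1164 and 1190 CPM in knockout, and the groups overlapped. Of the 7 tested, 3 were higher and 4 lower, with a median log2 fold change of -0.01. Cspg4 and Notch3 were higher in knockout and Kcnj8 lower, each at an unadjusted p under 0.05 in edgeR and without overlap between the groups. They are 42.9% of the 7 tested, beside 5.96% of all genes at that p and 12.1% without overlap. Higd1b and Vtn, the remaining 2, were below 1 CPM everywhere. Markers of macrophages, which surround and enter plaques, summed to 20.9, 3.76 and 5.085 CPM in WT and to 22.3, 14.4 and 4.17 CPM in knockout. Lyz2 alone ran from 0.172 to 12.6 CPM. Ednrb, at no more than 1.74 CPM, was like this sum highest in WT 1, knockout 1 and knockout 2 and lowest in WT 2. A link between them was not tested.

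The genes whose pattern over the 6 libraries was most like that of a member were found by Pearson correlation of log2 CPM, among 9915 genes with a mean log2 CPM of at least 3. For Rgs4 they were Pomgnt1 (r = 0.992), Gstm1 (r = 0.991) and Klhl7 (r = 0.989). For Rgs5 they were Larp4b (r = 0.992), Usp4 (r = 0.990) and Ppp6r3 (r = 0.986), and for Ednrb they were Gli2 (r = 0.996), Noc3l (r = 0.992) and Fbxo34 (r = 0.990). The correlation of Rgs4 with Rgs5 was 0.829, which put Rgs5 at rank 486 in the list of Rgs4. These values describe 6 points that share libraries and scaling, and each is the top of many genes.

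The signalling genes around the members were described through 5 further lists. Of 44 other vasoactive receptors 41 were listed, and 15 of these stayed below 1 CPM in every library. Over all genes tested, 8220 were higher and 8434 lower in knockout. Of the 33 receptors tested, 9 were higher and 24 lower, with a median log2 fold change of -0.20. At an unadjusted p under 0.05, 1 was lower (background 2.01% of all genes) and 0 higher (background 3.95%). The single gene was Calcrl, the receptor for adrenomedullin and calcitonin gene-related peptide, which dilate vessels. It was 92.2, 76.0 and 79.2 CPM in WT and 75.3, 65.3 and 63.8 CPM in knockout, a log2 fold change of -0.28 ± 0.10 (SE; edgeR, adjusted p = 0.81). P2ry6, a receptor for UDP, had a log2 fold change of -0.33, Adra1a one of 0.755 and Npy1r, a receptor for neuropeptide Y, one of 0.39. In all 3 the groups overlapped. With a library left out they ran from -0.52 to -0.245 for P2ry6, from 0.48 to 1.22 for Adra1a and from 0.22 to 0.58 for Npy1r.

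Of 19 other RGS genes 14 were listed and 11 tested, 7 higher and 4 lower, with a median of 0.06 and 0 past an unadjusted p of 0.05. Rgs2 was 60.0, 76.4 and 74.5 CPM in WT and 53.3, 66.8 and 56.0 CPM in knockout, a log2 fold change of -0.26 ± 0.12 (SE; edgeR, unadjusted p = 0.0714). Its value had the opposite sign to those of Rgs4 and Rgs5, and its groups overlapped. Rgs16 had a log2 fold change of -0.795 at no more than 1.77 CPM, Rgs1 one of 0.465, Rgs17 one of 0.41 and Rgs19 one of -0.22. With a library left out the values ran from -1.195 to -0.31 for Rgs16, from 0.33 to 0.735 for Rgs1, from 0.12 to 0.63 for Rgs17 and from -0.29 to -0.11 for Rgs19.

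Among ligands and the enzymes that make or break them, 20 of 23 were tested. Of these 8 were higher and 12 lower, and 1 was higher and 2 lower at an unadjusted p under 0.05. Ren1, renin, which starts the formation of angiotensin, was 5.06, 2.73 and 1.41 CPM in WT and 0.965, 0.435 and 0.445 CPM in knockout. Every knockout library lay below every WT library, with a log2 fold change of -2.33 ± 0.56 (SE; edgeR, unadjusted p = 0.00475, adjusted p = 0.75; DESeq2, adjusted p = 0.00721). Mme, neprilysin, a protease that degrades endothelin and other vasoactive peptides, was 7.12, 5.20 and 7.88 CPM in WT and 4.51, 3.80 and 3.76 CPM in knockout (log2 fold change -0.75 ± 0.19, SE; edgeR, adjusted p = 0.765). Edn1, which encodes endothelin-1, and Ece1, the protease that activates it, had log2 fold changes of 0.14 and -0.19. Those of Ptgis, prostacyclin synthase, and Ptges3, a prostaglandin E synthase, were 0.10 and 0.05, all 4 with overlapping groups. The higher gene was Tbxas1, thromboxane synthase, below 1 CPM in every library and named after its value was seen.

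Of 40 G proteins and effectors tested, 29 were higher and 11 lower with a median of 0.08. At an unadjusted p under 0.05, 5 were higher and 1 lower, 15% of those tested as for the ligands and enzymes, beside 5.96% of all genes. Prkca, a protein kinase C activated below Gq, was 23.5, 17.5 and 20.5 CPM in WT and 31.3, 30.5 and 27.3 CPM in knockout. Itpr1, the channel that releases stored calcium on the signal from Gq, was 128, 158 and 138.3 CPM in WT and 189, 231 and 184 CPM in knockout. In both, every knockout library lay above every WT library. The log2 fold change was 0.53 ± 0.12 (SE) for Prkca (edgeR, unadjusted p = 0.0027, adjusted p = 0.682) and 0.51 ± 0.12 (SE) for Itpr1 (edgeR, unadjusted p = 0.00349, adjusted p = 0.735). DESeq2 gave adjusted p-values of 0.0332 and 0.0268. Gnaq and Gna11, the alpha subunits that most of these receptors use, had log2 fold changes of 0.018 and 0.035 at 53.4 to 64.0 CPM and 145.8 to 159.7 CPM. Gnao1 (-0.08) and Adcy3 (-0.03), whose groups overlapped, had the smallest p among the lower genes with a mean log2 CPM of at least 0. Further genes at an unadjusted p under 0.05, named after their values were seen, included the adenylyl cyclases Adcy6 (0.30) and Adcy9 (0.27) and, lower, the calcium entry channel Trpc6 (-1.16, at no more than 1.74 CPM).

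Of 11 genes that desensitise receptors or degrade RGS proteins, 9 were higher and 2 lower, with a median of 0.05. At an unadjusted p under 0.05 in edgeR there was 1, or 9.09%, beside 5.96% of all genes. This was Ubr2, a ubiquitin ligase of the pathway that degrades Rgs4 and Rgs5 protein from the N-terminus. It was 61.8, 55.4 and 57.7 CPM in WT and 68.0, 67.4 and 68.45 CPM in knockout. The groups did not overlap, as for 12.1% of all genes. The log2 fold change was 0.22 ± 0.06 (SE; edgeR, unadjusted p = 0.00757, adjusted p = 0.78). The receptor kinases Grk3, Grk4 and Grk5, which phosphorylate active receptors, had log2 fold changes of 0.32, -0.11 and -0.14, and Arrb2, an arrestin that then binds them, had 0.05. In these 5 lists, 0 genes passed an adjusted p of 0.05 in edgeR.

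**Figure D4:**
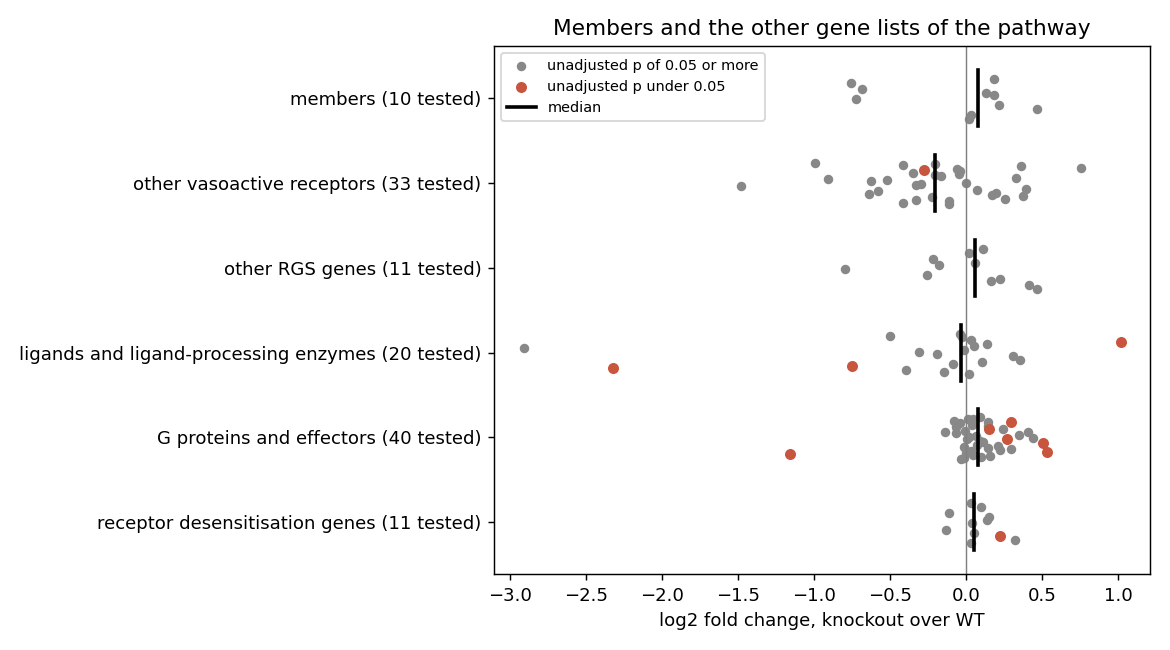
Log2 fold change, knockout over WT (horizontal axis), of every tested gene of the 10 members and of the 5 other lists (rows). Red points have an unadjusted p under 0.05 in edgeR, and black bars give the median, which is lowest for the other receptors at -0.20.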

How the data were processed

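For 3 WT and 3 knockout samples, the deposited table gives estimated counts of each gene, not normalized by the authors. The submitters' processing notes name mm10, STAR 2.6 and DESeq2 without their roles. The counting tool is not given in the sources used here. Whole numbers made up 43.6% to 54.3% of the deposited values of a library, and all were rounded before testing. The number of per-sample columns that matched no sample was 0.

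After filterByExpr and TMM scaling, 16654 genes were tested with edgeR 4.0.16 in R 4.3.3 (quasi-likelihood F test, robust, two-sided), and p-values were adjusted over all of them by Benjamini-Hochberg. The precision was a median SE of 0.136 for log2 fold changes, or 0.323 to either side as a 95% interval. Replicates of a group differed beyond counting noise (chi-square per gene 30.2 to 109).

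The members and gene lists were chosen with earlier results of these data known. All members were named. From each other list the 2 genes with the smallest p in each direction and a mean log2 CPM of at least 0 were named, with Rgs2, Rgs16, Edn1, Ece1, Gnaq, Gna11, Grk5 and Arrb2 chosen for their role. Log2 ratios used a prior count of 2.

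Exon lengths and 3′ UTRs came from GENCODE M21, in which all 10 members have the start given in the table. The transcript with the best APPRIS tag was searched if its UTR had at least 8 bases. Results were recomputed with upper-quartile or DESeq2 size factors, without a filter or with 1 CPM required in 3 samples, with DESeq2 1.42.0, with limma 3.58.1 (voom, sample weights), with a replicate block, without each library, and with an adjusted p of 0.1. Thinning to the smallest library was chosen after seeing the data. Remaining steps used Python 3.11.15.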

Additional observations from a re-analysis of the deposited data

How the results depend on the processing

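Under every alternative run, 0 of the 10 members passed an adjusted p of 0.05. The number of genes changed was 0 in edgeR, 73 with DESeq2 (61 higher, 12 lower), 1 with the replicate block and 0 to 1 when a library was left out (1 without knockout 1). Whether the replicate numbers pair the samples was left undecided. Same-numbered libraries had correlated deviations of 0.289, 0.317 and -0.0263: replicates 1 and 2 correlated best with their own number, and replicate 3 did not. Deviations from a group mean sum to 0 within the group, so these correlations depend on each other and cannot decide it. With the replicate block the log2 fold changes of Ednra and Avpr1a were -0.71 and -0.79 (edgeR, adjusted p 0.122 and 0.127). At an unadjusted p of 0.05, 4 members passed with the block (Ednra, Avpr1a, Ptgir and Tbxa2r, beside 12.7% of all genes), 2 with voom weights (Ednra and Avpr1a, beside 11.6%), and Ednra alone with DESeq2 (beside 6.02%) or upper-quartile factors (beside 5.72%). Without WT 2 it was 3 (Ednra, Adra1d and Tbxa2r, beside 8%). Of the members' alternative values 131 kept their direction and 7 turned, and 6 members never changed sign. With a library left out, Agtr1a ranged from -0.140 to 0.724, Ednrb from -0.335 to 0.693, Adra1b from -0.122 to 0.153 and Adra1d from -0.068 to 0.481. The log2 ratio difference then ranged from -0.151 to 0.059 for Rgs5 over Rgs4 and from -0.195 to 0.442 for Adra1d over Adra1b. Among the other named genes, Ptgis ranged from -0.004 to 0.194, Ece1 from -0.367 to 0.156, Edn1 from -0.219 to 0.358, Gnaq from -0.044 to 0.089, Arrb2 from -0.097 to 0.24, Grk5 from -0.303 to 0.159 and Grk4 from -0.262 to 0.014. Without a change of sign, Grk3 ranged from 0.177 to 0.423, Gnao1 from -0.12 to -0.04, Adcy3 from -0.061 to -0.003, Gna11 from 0.001 to 0.063 and Ptges3 from 0.016 to 0.075. With voom weights Rgs17 was 0.817, Adra1a 1.206, Grk5 0.047, Edn1 -0.059 and Arrb2 -0.082, and after thinning Grk4 was 0.073 and Gnaq -0.022. The cause of these changes was not tested. Agtr1a and Ednrb had no value under the filter of 1 CPM in 3 samples.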
